A study of Mus musculus with 14 samples.

Results

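Acute-phase proteins are plasma proteins that hepatocytes make in larger or smaller amounts during inflammation. Serum amyloid A is the best known of them in mice. The genes described here are 10 others whose products rise in the acute phase or belong to its protein families, namely Orm1, Orm2, Orm3, Itih3, Itih4, Lbp, Apcs, Crp, Serpina3n and Lrg1. They were found by symbol among 54532 genes in a table of liver RNA-Seq counts, and all 10 passed the filter on low counts, which kept 15118 genes. In both WT livers 6 of the 10 lay above every TRPV4-KO liver, beside 17.7% of all genes, and 7 above every GSK219 liver, beside 15.6%. Orm2 had the largest fold changes, whereas Crp had nearly equal values in all groups. With edgeR none of the 10 passed the threshold in either comparison. DESeq2 called 3 higher in WT than in TRPV4-KO, beside 2.47% of all genes, and 2 higher than in GSK219, beside 0.423%.

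All mice carried a pancreatic tumor grown from 100000 KPCY cells, which are cultured from a mouse pancreatic cancer and had been placed in the tail of the pancreas, and livers were taken 20 days later. The animals were 8 to 12 weeks of age. WT livers (n = 2) came from mice that the Methods describe as Piezo1 fl/fl. TRPV4-KO livers (n = 3) came from Trpv4-/- mice, which lack the calcium channel TRPV4 in the whole body, while the injected tumor cells carried it. GSK219 livers (n = 3) came from WT mice gavaged daily with the TRPV4 antagonist GSK2193874 at 10 mg/kg, and the title of the third of them spells the drug GSRK219, which was taken as a typing error. Neither the Piezo1 allele of the TRPV4-KO mice nor a carrier gavage of the untreated WT mice is stated in the sources used here. The study also holds mouse pancreatic stellate cells (PSCs) treated with the PIEZO1 agonist Yoda1 or with DMSO.

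IL-6 reaching the liver activates STAT3 in hepatocytes, and together with C/EBP factors and IL-1 acting through NF-κB it drives transcription of positive acute-phase genes. Their products bind microbes and debris, carry small molecules, block proteases or stabilize the matrix, and many serve as blood markers of inflammation. Albumin and several carrier proteins are made in smaller amounts at the same time and are called negative acute-phase proteins.

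Each liver had between 15567031 and 17395299 counts, of which the 10 genes took between 0.825% and 1.97%. Counts of Trpv4 itself were 43 and 53 in WT livers, 15, 5 and 23 in TRPV4-KO livers, and 20, 30 and 36 in GSK219 livers. Each TRPV4-KO liver and each GSK219 liver thus had fewer Trpv4 counts than either WT liver, the ranges of TRPV4-KO and GSK219 overlapped, and no liver was without Trpv4 counts. The log2 fold change of Trpv4 in WT was 1.71 over TRPV4-KO (SE 0.50, adjusted p = 0.16, by the quasi-likelihood test of edgeR) and 0.72 over GSK219 (SE 0.48, adjusted p = 0.77, edgeR), that of TRPV4-KO over GSK219 was -0.99 (SE 0.47, adjusted p = 0.86, edgeR), and these counts per gene do not show which exons the reads came from. Xist, which is transcribed from the inactive X chromosome of females, had between 13681 and 15754 counts in 1 liver of each group (the first WT liver and the third liver of both other groups) and at most 7 in the other 5 livers. Y-linked genes had 2444 to 2803 counts in those 5 and 56 to 252 in the livers with Xist reads. The groups of livers are called below by the reads that prevail in them. Every one of 12 hepatocyte markers was detected in each group, and their summed level was 70219.5 to 77474 CPM in WT, 94576 to 115069 CPM in TRPV4-KO and 91078 to 102174 CPM in GSK219 livers. CPM are counts scaled to the library total after TMM normalization, as used throughout.

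Differences between groups are given as log2 fold changes from a single edgeR fit of all 8 livers, and a gene was called when its adjusted p was under 0.05 and its log2 fold change over 1. The 2 WT livers served in both comparisons, which are therefore not independent. By this threshold, 0 of the 10 genes were called higher in WT when set against TRPV4-KO, beside 0.152% of all genes tested, and 0 were called lower, beside 0.112%. In WT against GSK219 the test called 0 of the 10 and 0% of all genes in each direction. At an unadjusted p under 0.05, 7 of the 10 were higher in WT in the comparison with TRPV4-KO, beside 9.5% of all genes, and 6 of the 10 in the comparison with GSK219, beside 5.87%. None of the 10 was lower at that level, against 7.61% and 2.34% of all genes. The median log2 fold change of the 10 genes was 0.85 in WT over TRPV4-KO and 0.66 in WT over GSK219, beside medians of -0.011 and -0.0015 over all genes tested. The genes called by DESeq2 at the same threshold were Orm1, Orm2 and Apcs against TRPV4-KO and Orm1 and Orm2 against GSK219.

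**Figure D1:**
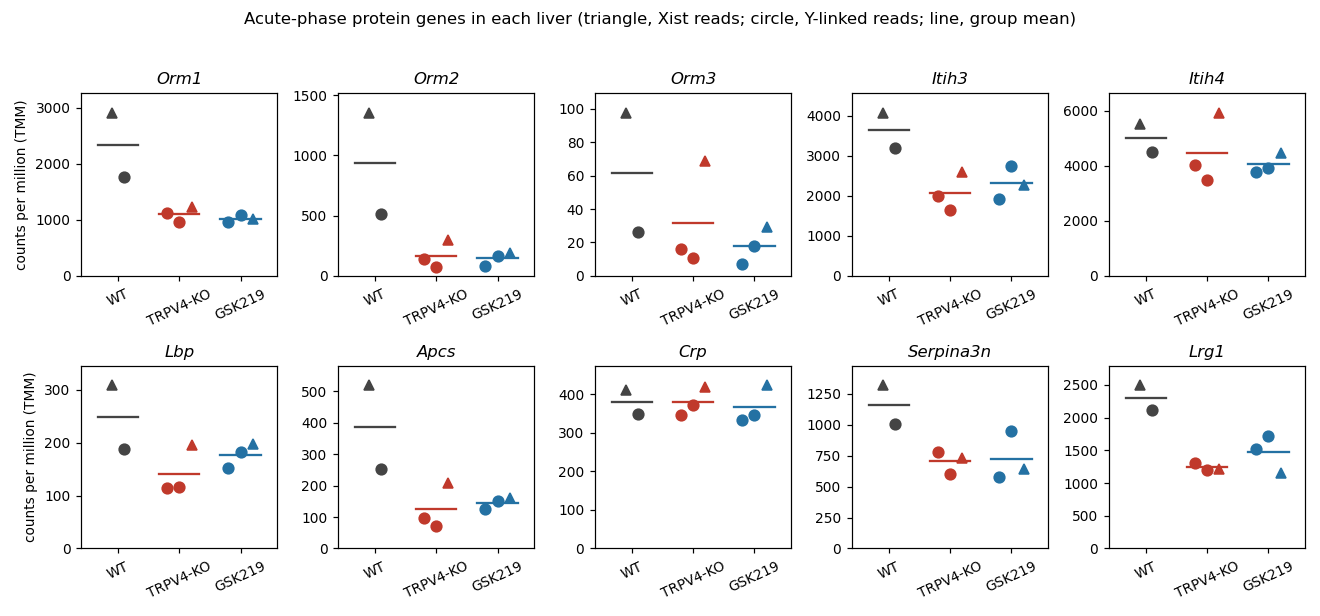
Each panel plots the level of 1 gene in CPM (TMM-normalized, linear axis from 0) for every liver of the WT, TRPV4-KO and GSK219 groups. Triangles are livers with Xist reads, circles are livers with Y-linked reads and lines are group means. Both WT points of Orm1, Orm2, Itih3, Apcs, Serpina3n and Lrg1 sit above all points of both other groups, and the 3 groups of Crp overlap.

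The orosomucoids are small, heavily glycosylated plasma proteins that bind drugs and lipids and modulate leukocytes. Their 3 genes lie next to each other on the plus strand of chromosome 4 (GRCm38). Orm1 (ENSMUSG00000039196) spans 63344560 to 63348163, Orm3 (ENSMUSG00000028359) 63356162 to 63359511 and Orm2 (ENSMUSG00000061540) 63362449 to 63365878, so that gaps of 8 kb and 2.94 kb separate them. Reads can be assigned to the wrong copy where copies are identical, so their likeness was measured on GENCODE transcripts. Coding sequences of Orm1 and Orm2 shared 89.9% of their 621 bases, those of Orm1 and Orm3 86%, and those of Orm2 and Orm3 87.9%. Of all stretches of 100 bases in the transcripts, 6.95% of those in Orm1, 6.95% of those in Orm2 and 0% of those in Orm3 also occurred in another of the 3. For stretches of 50 bases these shares were 20.4%, 21.8% and 3.59%, and the read length is not given in the sources used here. Bases 139 to 228 of the coding sequence, counted from the start codon, are the in-frame stretch of 90 bases in which Orm1 and Orm2 differ most. They hold 20 of the 63 coding positions at which both genes differ and are shown as an example of what tells reads of the paralogs apart. Capitals mark the differing positions.
Orm1: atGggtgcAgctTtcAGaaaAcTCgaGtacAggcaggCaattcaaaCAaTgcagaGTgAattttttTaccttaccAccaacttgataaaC
Orm2: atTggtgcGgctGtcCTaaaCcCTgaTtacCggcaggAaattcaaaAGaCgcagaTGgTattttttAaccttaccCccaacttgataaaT

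Orm1 was the most abundant of the 3. Its level was 2910 and 1761 CPM in the WT livers, 1125, 955 and 1236 CPM in the TRPV4-KO livers, and 965, 1087 and 1008 CPM in the GSK219 livers. Both WT livers were above all 6 others, which spanned a narrow range. The log2 fold change of Orm1 was 1.08 in WT over TRPV4-KO (SE 0.21, adjusted p = 0.095, edgeR) and 1.20 in WT over GSK219 (SE 0.21, adjusted p = 0.34, edgeR), and these missed the threshold. Without TRPV4-KO replicate 3, Orm1 passed it against TRPV4-KO with a log2 fold change of 1.17 (adjusted p = 0.032, edgeR). Without WT replicate 1 it fell to 0.69 (adjusted p = 0.47, edgeR) against TRPV4-KO and to 0.78 (adjusted p = 1, edgeR) against GSK219. Without the filter on low counts it passed in both comparisons, with adjusted p = 0.0100 and 0.027 (edgeR).

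Orm2 had the largest fitted fold change of the 10 genes in both comparisons with WT. Its level was 1354 and 518 CPM in WT, 137, 70.0 and 297 CPM in TRPV4-KO, and 80.6, 169 and 188 CPM in GSK219 livers. Both WT livers were again above all others, although WT replicate 1 was far above WT replicate 2. Its fitted log2 fold change was 2.48 in WT over TRPV4-KO (SE 0.68, 95% interval 0.88 to 4.08, adjusted p = 0.16, edgeR) and 2.68 in WT over GSK219 (SE 0.68, 95% interval 1.08 to 4.29, adjusted p = 0.47, edgeR). With a term for sex reads in the fit, Orm2 passed the threshold against TRPV4-KO, with a log2 fold change of 2.31 (adjusted p = 0.042, edgeR). With 1 library left out it ran from 1.64 to 3.18 against TRPV4-KO and from 1.83 to 3.21 against GSK219, and both lowest values were those without WT replicate 1 (adjusted p = 0.72 and 1, edgeR).

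Orm3 was scarce and variable. It had 97.6 and 26.0 CPM in WT, 15.9, 10.8 and 69.0 CPM in TRPV4-KO, and 7.30, 18 and 29.2 CPM in GSK219 livers. The groups overlapped, and the highest value in each group was that of the liver with Xist reads. On the log2 scale WT differed by 0.95 (SE 1.00, adjusted p = 0.69, edgeR) against TRPV4-KO and 1.76 (SE 1.00, adjusted p = 0.73, edgeR) against GSK219, and without WT replicate 1 these became -0.28 and 0.51.

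Since reads assigned to the wrong copy among the 3 cancel in a sum, the 3 paralogs were also added up. Reads left out of the counts because they fit more than 1 copy would not cancel. How such reads were treated is not given in the sources used here. The sum was 4362 and 2304 CPM in WT, 1277, 1036 and 1602 CPM in TRPV4-KO, and 1053, 1274 and 1225 CPM in GSK219 livers. Its log2 fold change was 1.35 (SE 0.27, adjusted p = 0.099, edgeR) in WT over TRPV4-KO and 1.49 (adjusted p = 0.35, edgeR) in WT over GSK219. The makeup of the sum is described without a test. Orm2 made up 31.0% and 22.5% of it in WT livers, 10.7%, 6.75% and 18.5% in TRPV4-KO livers, and 7.66%, 13.2% and 15.3% in GSK219 livers, so that both WT shares lay above the other 6.

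**Figure D2:**
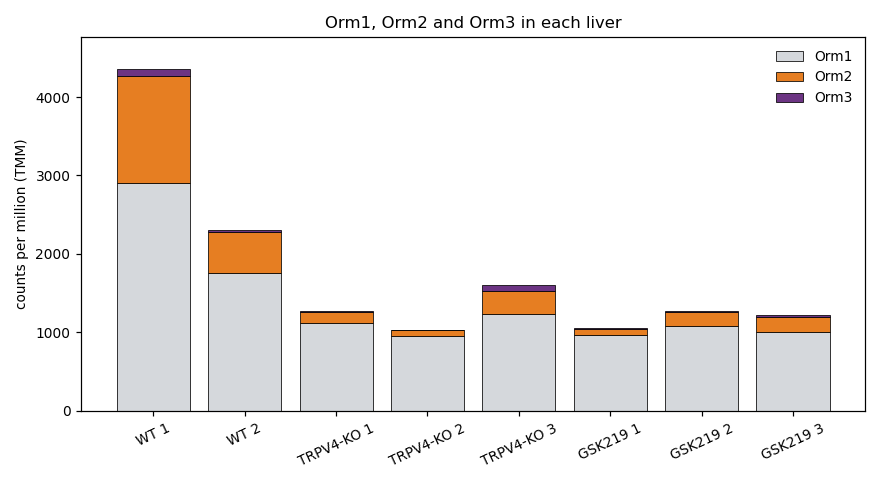
Stacked bars show the CPM (TMM-normalized, axis from 0) of Orm1, Orm2 and Orm3 in each of the 8 livers. The Orm2 segment is 31.0% and 22.5% of the bar in the WT livers and between 6.75% and 18.5% in the others.

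Promoters were examined because several of the genes varied together. RefSeq gave the 250 bases before the transcript start (GRCm38.p6) for 8 of the 10, all except Orm1 and Lbp. They were searched on both strands for TTCNNNGAA (STAT), CTGGGAA (type 2 IL-6 response element) and TTGCNNAA (C/EBP), which 7.18%, 9.08% and 9.55% of 27025 mouse promoters of this length hold. Each motif was found in 2 of the 8 promoters, STAT in Apcs and Itih4, the IL-6 response element in Apcs and Lrg1, and C/EBP in Orm2 and Orm3. The promoters of Orm2 (chr4:63362199-63362448, plus strand) and Orm3 (chr4:63355908-63356157, plus strand), shown because neighbouring paralogs of unequal level can be compared in them, were 85.5% identical and each held the C/EBP motif once, 120 and 121 bases before the start. Here and in the next pair, capitals mark the matches. A match is only a run of letters and does not show that a factor was bound.
Orm2: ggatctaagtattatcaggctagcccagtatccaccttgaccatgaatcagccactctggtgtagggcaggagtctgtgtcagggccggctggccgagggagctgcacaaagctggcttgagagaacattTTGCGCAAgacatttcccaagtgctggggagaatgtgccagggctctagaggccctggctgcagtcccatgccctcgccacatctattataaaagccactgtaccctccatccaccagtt
Orm3: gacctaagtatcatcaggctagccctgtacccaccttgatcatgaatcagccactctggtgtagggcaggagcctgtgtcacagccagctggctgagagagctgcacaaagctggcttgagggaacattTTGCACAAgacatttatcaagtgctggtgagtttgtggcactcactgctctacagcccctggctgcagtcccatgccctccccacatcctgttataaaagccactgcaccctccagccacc

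Apcs and Crp encode the short pentraxins serum amyloid P component and C-reactive protein, which bind phosphocholine, chromatin and other ligands and activate complement. Apcs is a strong acute-phase gene in mice, whereas Crp is the strong one in humans. Apcs (ENSMUSG00000026542) spans 172893961 to 172895041 on the minus strand of chromosome 1, and Crp (ENSMUSG00000037942) spans 172698055 to 172833031 on its plus strand. Their promoters at chr1:172895055-172895304 (Apcs, minus strand) and chr1:172697806-172698055 (Crp, plus strand) are shown because their genes differed in these livers, and they were 47.4% identical. The Apcs promoter held the STAT motif once, 244 bases before the start, and the type 2 IL-6 response element 2 times, 129 and 52 bases before it. None of the 3 motifs was found in the Crp promoter, which says only that these letters are not in this window.
Apcs: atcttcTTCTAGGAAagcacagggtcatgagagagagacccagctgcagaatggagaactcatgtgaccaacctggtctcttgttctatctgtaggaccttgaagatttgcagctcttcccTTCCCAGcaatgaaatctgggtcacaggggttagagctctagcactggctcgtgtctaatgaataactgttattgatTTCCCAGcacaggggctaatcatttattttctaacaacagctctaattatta
Crp: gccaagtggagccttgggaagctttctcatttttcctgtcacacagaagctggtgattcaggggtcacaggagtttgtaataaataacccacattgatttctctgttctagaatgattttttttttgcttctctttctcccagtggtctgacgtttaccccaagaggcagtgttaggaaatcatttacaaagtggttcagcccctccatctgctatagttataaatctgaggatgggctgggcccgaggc

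Apcs had 519 and 253 CPM in WT, 96.4, 70.3 and 208 CPM in TRPV4-KO, and 125, 151 and 160 CPM in GSK219 livers. Both WT livers were above all others, and WT replicate 2 and TRPV4-KO replicate 3 were the closest. Its log2 fold change was 1.63 in WT over TRPV4-KO (SE 0.46, adjusted p = 0.16, edgeR) and 1.41 in WT over GSK219 (SE 0.46, adjusted p = 0.54, edgeR). It passed the threshold against TRPV4-KO with a term for sex reads, at 1.52 (adjusted p = 0.031, edgeR), and without TRPV4-KO replicate 3, at 2.22 (adjusted p = 0.025, edgeR). Without WT replicate 1 it was 1.04 (adjusted p = 0.74, edgeR) against TRPV4-KO and 0.79 (adjusted p = 1, edgeR) against GSK219.

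Crp had 412 and 349.5 CPM in WT, 345, 373 and 419 CPM in TRPV4-KO, and 333, 345 and 423 CPM in GSK219 livers. The groups overlapped fully. Its log2 fold change was 0.0064 in WT over TRPV4-KO, with a 95% interval from -0.35 to 0.36, and 0.053 in WT over GSK219, with a 95% interval from -0.30 to 0.40 (adjusted p = 0.99 and 0.97, edgeR). Neither interval reaches a 2-fold difference.

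Itih3 and Itih4 encode heavy chains of the inter-alpha-trypsin inhibitor family, plasma proteins of which some bind and stabilize hyaluronan in the matrix. Itih4 differs from Itih3 in that its product is not joined to bikunin, the light chain encoded by Ambp. The genes lie 6.22 kb apart on chromosome 14, Itih4 (ENSMUSG00000021922) from 30886476 to 30902353 on the plus strand and Itih3 (ENSMUSG00000006522) from 30908572 to 30923760 on the minus strand. Itih3 had 4069 and 3189 CPM in WT, 1998, 1652 and 2591 CPM in TRPV4-KO, and 1923, 2745 and 2280 CPM in GSK219 livers. Both WT livers were above all others. The log2 fold change of Itih3 was 0.80 (SE 0.23, adjusted p = 0.16, edgeR) against TRPV4-KO and 0.65 (SE 0.23, adjusted p = 0.54, edgeR) against GSK219. Against TRPV4-KO its adjusted p was under 0.05 with DESeq2 (0.022) and without TRPV4-KO replicate 3 (0.036, edgeR), with log2 fold changes of 0.80 and 0.99, under the threshold of 1. Itih4 had 5527 and 4501 CPM in WT, 4025, 3485 and 5919 CPM in TRPV4-KO, and 3780, 3902 and 4449 CPM in GSK219 livers. Here TRPV4-KO replicate 3 was the highest of all livers, so WT and TRPV4-KO overlapped, while both WT livers were above the GSK219 livers, the lower one narrowly. The log2 fold change of Itih4 was 0.16 (SE 0.23, adjusted p = 0.77, edgeR) against TRPV4-KO and 0.31 (SE 0.23, adjusted p = 0.80, edgeR) against GSK219. With 1 library left out it ran from 0.011 (without TRPV4-KO replicate 2) to 0.42 (without TRPV4-KO replicate 3) in the first comparison and from 0.15 (without WT replicate 1) to 0.44 (without WT replicate 2) in the second.

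Lbp encodes the lipopolysaccharide-binding protein, which hands bacterial lipopolysaccharide to CD14 and so to the receptor TLR4. The gene (ENSMUSG00000016024) spans 158306493 to 158332852 on the plus strand of chromosome 2. It had 308 and 188 CPM in WT, 113.5, 116 and 195 CPM in TRPV4-KO, and 152, 181 and 198 CPM in GSK219 livers. WT replicate 1 was the highest, and WT replicate 2 lay within the range of both other groups. In the fit, the log2 fold change was 0.81 (SE 0.28, adjusted p = 0.22, edgeR) against TRPV4-KO and 0.49 (SE 0.29, adjusted p = 0.73, edgeR) against GSK219. Without TRPV4-KO replicate 3 the first was 1.11 (adjusted p = 0.034, edgeR) and passed the threshold. With a term for sex reads it was 0.72 (adjusted p = 0.044, edgeR), under the threshold of 1 for the fold change. Without WT replicate 1 the values of Lbp were 0.42 (adjusted p = 0.86, edgeR) and 0.078 (adjusted p = 1, edgeR).

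Serpina3n encodes a serine protease inhibitor of the antichymotrypsin group, whose targets include neutrophil and cytotoxic lymphocyte proteases. The gene (ENSMUSG00000021091) spans 104406729 to 104414329 on the plus strand of chromosome 12. It had 1317 and 1002 CPM in WT, 776, 604 and 730 CPM in TRPV4-KO, and 581, 951 and 642 CPM in GSK219 livers. Both WT livers were above all others, although WT replicate 2 and GSK219 replicate 2 were close. WT over TRPV4-KO gave a log2 fold change of 0.72 (SE 0.23, adjusted p = 0.19, edgeR), and WT over GSK219 gave 0.68 (SE 0.23, adjusted p = 0.54, edgeR).

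Lrg1 encodes leucine-rich alpha-2-glycoprotein, which acts on TGF-β signaling in endothelial cells through endoglin and ALK1. The gene (ENSMUSG00000037095) spans 56119678 to 56122001 on the minus strand of chromosome 17. It had 2494 and 2118 CPM in WT, 1302, 1202 and 1222 CPM in TRPV4-KO, and 1524, 1723 and 1159 CPM in GSK219 livers. Both WT livers were above all others, and the TRPV4-KO livers lay close together. Between WT and TRPV4-KO the log2 fold change was 0.89 (SE 0.18, adjusted p = 0.095, edgeR), and between WT and GSK219 it was 0.65 (SE 0.18, adjusted p = 0.47, edgeR). Against TRPV4-KO the adjusted p of Lrg1 was under 0.05 with DESeq2 (0.00087), without the filter (0.016, edgeR), with a term for sex reads (0.033, edgeR) and without TRPV4-KO replicate 3 (0.041, edgeR). The log2 fold change was 0.86 to 0.92 in these fits, under the threshold of 1.

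**Figure D3:**
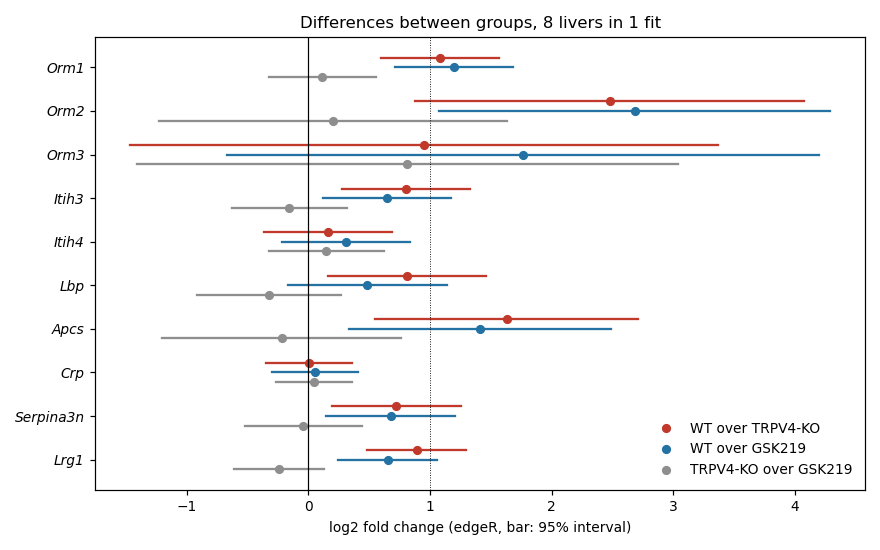
Points are the log2 fold changes of each gene from the edgeR fit and bars are their 95% intervals, for WT over TRPV4-KO (red), WT over GSK219 (blue) and TRPV4-KO over GSK219 (gray). The interval lies above 0 for 7 of the 10 genes in red, for 6 in blue and for 0 in gray. The dotted line marks a log2 fold change of 1.

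The antagonist and the knockout were also compared with each other, since these livers share no library. None of the 10 genes was called in TRPV4-KO against GSK219, where 0.0529% of all genes were called higher and 0.0463% lower, and none had an unadjusted p under 0.05, beside 3.48% and 2.64% of all genes. The log2 fold changes ran from -0.32 in Lbp to 0.81 in Orm3, with 5 above 0, and their median was 0.0018. The intervals differ much in width. That of Crp ran from -0.27 to 0.36 and that of Orm1 from -0.32 to 0.56, whereas that of Orm2, from -1.22 to 1.63, and that of Orm3, from -1.41 to 3.04, include differences of more than 2-fold in either direction. In WT against the mean of both other groups, edgeR called 0 of the 10, beside 0.132% of all genes called higher and 0.0132% lower, and the log2 fold change was 1.14 for Orm1 (adjusted p = 0.073, edgeR) and 2.58 for Orm2 (adjusted p = 0.15, edgeR). Orm1, Orm2 and Apcs passed in that comparison with DESeq2, which called 1.86% of all genes higher, and with a term for sex reads in edgeR, which called 1.05%. Without TRPV4-KO replicate 3, Orm1 and Apcs were among 237 genes called higher, and without WT replicate 2 Orm1 was among 6, at 1.46 (adjusted p = 0.049, edgeR). Without WT replicate 1, 0 genes were called higher, and the values fell to 0.73 for Orm1 (adjusted p = 0.61, edgeR), 1.73 for Orm2 (adjusted p = 0.93, edgeR) and 0.92 for Apcs (adjusted p = 0.98, edgeR).

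Levels of different genes were compared per kilobase of the length given with the counts. In WT livers the order, in CPM per kb, was Orm1 (3013 ± 1049, SD, n = 2), Lrg1 (1638 ± 189), Itih4 (1359 ± 197), Orm2 (1208 ± 763), Itih3 (998 ± 171), Serpina3n (562 ± 108), Apcs (398 ± 194), Crp (111 ± 12.8), Orm3 (79.9 ± 65.5) and Lbp (51.3 ± 17.6). The WT values of Orm1 and Lrg1, Lrg1 and Itih4, Itih3 and Serpina3n, and Apcs and Crp did not overlap, while the other neighbours in this order did. Averaged over all livers, Orm1 ranked 30th among all genes in this measure, and Lbp, the lowest of the 10 in this mean, ranked 1133rd. The means had another order in the other groups. That of Orm2 was 217 ± 151 in TRPV4-KO and 188 ± 73.8 in GSK219 livers (SD, n = 3), below Itih3 (572 ± 131 and 637 ± 113). Serpina3n (341 ± 43.1 and 351 ± 96.1) was also above Orm2 there, and Itih4 had a higher mean than Lrg1 in both groups. In GSK219 livers alone Orm3 (23.5 ± 14.1, SD, n = 3) had a lower mean than Lbp (36.6 ± 4.82).

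The sex of the animals was visible in the reads, and some of these genes differed between livers with Xist and with Y-linked reads. Only 1 liver of each group had Xist reads, so sex cannot be told apart from other traits of those animals. WT replicate 1, with Xist reads, was above WT replicate 2 in 10 of the 10 genes, and TRPV4-KO replicate 3, also with Xist reads, was the highest TRPV4-KO liver in 8 of the 10. GSK219 replicate 3, the liver of that group with Xist reads, was its highest in 6 of the 10. On the log2 scale it lay below the mean of the other GSK219 livers in Orm1 (-0.023), Itih3 (-0.011), Serpina3n (-0.21) and Lrg1 (-0.48). In a fit with a term for sex reads, Orm3 was higher in livers with Xist reads by a log2 fold change of 1.85 (SE 0.33, adjusted p = 0.035, edgeR) and Lbp by 0.57 (SE 0.12, adjusted p = 0.042, edgeR). At an adjusted p under 0.05, whatever the fold change, these 2 of the 10 were higher with Xist reads, beside 1.99% of all genes, and 0 were lower, beside 1.48%. The term was 1.17 for Orm2 (adjusted p = 0.11, edgeR), 0.87 for Apcs (adjusted p = 0.072, edgeR) and -0.12 for Lrg1 (adjusted p = 0.66, edgeR). With WT and TRPV4-KO compared within each kind of liver, the log2 difference of Orm2 was 2.19 between the livers with Xist reads and 2.40 between those with Y-linked reads, and that of Apcs was 1.32 and 1.62. For Orm1 these values were 1.24 and 0.76, and for Lrg1 1.03 and 0.76. For Itih4 they were -0.099 and 0.27 and for Crp -0.024 and -0.038. Between WT and GSK219 they were 2.85 and 2.15 for Orm2, 1.53 and 0.78 for Orm1, and 1.70 and 0.88 for Apcs. Each such comparison has 1 WT liver and at most 2 others, so no test was made. With the sex term, 3 of the 10 genes passed the threshold against TRPV4-KO (Orm1, Orm2 and Apcs), where 1.67% of all genes were called higher, and 0 passed against GSK219, where 0.0132% were.

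The genes did not all vary together across livers. As a description over 8 livers that share their library and their group, Pearson's r of log2 CPM with the mean of the other 9 genes was 0.98 for Orm2, 0.97 for Apcs, 0.95 for Itih3 and 0.90 for both Orm1 and Lbp. It was 0.66 for Lrg1 and 0.44 for Crp, the lowest of the 10. The 10 genes outside the list whose log2 CPM was most like the mean of the list were Naaa, Ssbp4, Camk2d, Il33, Vill, Lcn2, Wdr1, Gm12404, Ms4a8a and AU020206, with r from 0.979 to 0.988. Lcn2 encodes lipocalin 2, an iron-siderophore binding acute-phase protein, and its log2 fold change was 2.51 (SE 0.98, adjusted p = 0.27, edgeR) in WT over TRPV4-KO and 2.49 (SE 0.98, adjusted p = 0.59, edgeR) in WT over GSK219. Il33 encodes an alarmin cytokine and had log2 fold changes of 1.24 (adjusted p = 0.23, edgeR) and 1.42 (adjusted p = 0.54, edgeR).

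Other positive acute-phase genes of the liver are described for comparison. Of 23 on the list, 22 were tested. With edgeR, 2 were called higher in WT against TRPV4-KO, beside 0.152% of all genes, 0 against GSK219, beside 0%, and 3 against the mean of both (Saa1, Saa2 and Hpx), beside 0.132%. The 2 against TRPV4-KO were Saa2, encoding a serum amyloid A, with a log2 fold change of 4.36 (SE 0.56, adjusted p = 0.038, edgeR), and Hpx, encoding the heme carrier hemopexin, with 1.14 (SE 0.16, adjusted p = 0.036, edgeR). Hpx had 16603 and 13407 CPM in WT, 7195, 6262 and 6983 CPM in TRPV4-KO, and 7156, 8047 and 6746 CPM in GSK219 livers. At an unadjusted p under 0.05, 12 of the 22 were higher in WT against TRPV4-KO, beside 9.5% of all genes, and 8 against GSK219, beside 5.87%, with medians of 0.87 and 0.49. The log2 fold changes of Hpx and of Orm1 were close, 1.14 and 1.08, but the SE of Orm1 was larger. Of 12 negative acute-phase genes, 0 were called, and 4 were lower in WT at an unadjusted p under 0.05 against TRPV4-KO, beside 7.61% of all genes, and 3 against GSK219, beside 2.34%. Among them Alb, encoding albumin, had 44375 and 31636 CPM in WT, 71823, 54089 and 74029 CPM in TRPV4-KO, and 61085, 51442 and 61769 CPM in GSK219 livers, and a log2 fold change of -0.81 (SE 0.22, adjusted p = 0.15, edgeR) against TRPV4-KO. The median of the negative list was -0.10 and -0.18.

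**Figure D4:**
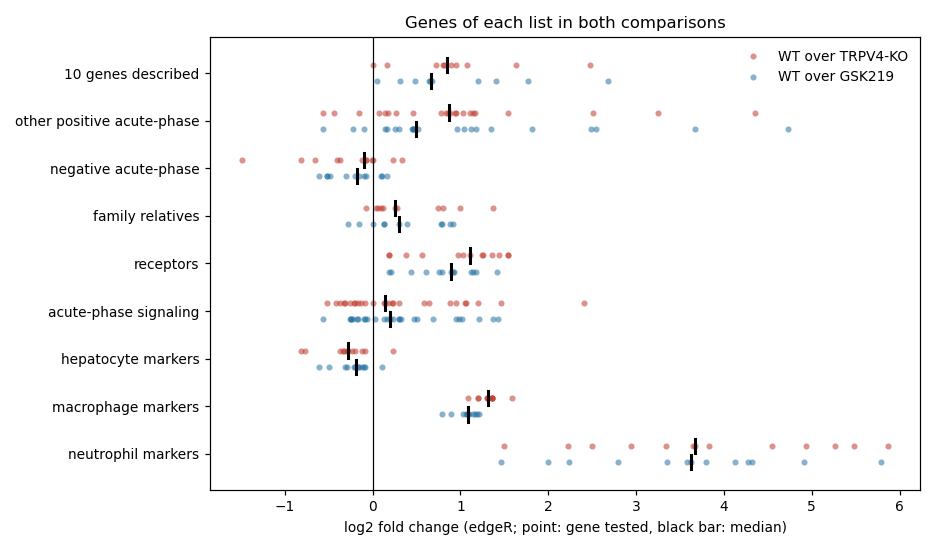
Each point is a tested gene's log2 fold change of WT over TRPV4-KO (red) or WT over GSK219 (blue), by gene list, and black bars are list medians. The medians of the 10 genes are 0.85 and 0.66, those of the negative acute-phase genes -0.10 and -0.18, and those of the neutrophil markers 3.67 and 3.62.

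Of 20 family relatives of the 10 genes, 11 were tested and edgeR called 0. At an unadjusted p under 0.05, 1 of the 11 was higher in WT against TRPV4-KO (Pltp), beside 9.5% of all genes, and 2 of the 11 against GSK219 (Pltp and Ambp), beside 5.87%. For Pltp, a lipid transfer protein of the Lbp family, WT exceeded TRPV4-KO on the log2 scale by 1.00 (adjusted p = 0.12, edgeR) and GSK219 by 0.92 (adjusted p = 0.44, edgeR). Ambp, which encodes bikunin, had log2 differences of 0.28 (adjusted p = 0.36, edgeR) and 0.40 (adjusted p = 0.54, edgeR). Against TRPV4-KO, Itih1 had 0.26 (adjusted p = 0.42, edgeR). Serpina3k, a neighbour of Serpina3n that was present at a mean of 7322 CPM in WT livers, had 0.033 (adjusted p = 0.98, edgeR).

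Of 30 genes of acute-phase signaling, 27 were tested and 0 were called. At an unadjusted p under 0.05, 7 were higher and 1 was lower in WT against TRPV4-KO (9.5% and 7.61% of all genes), and 6 and 0 against GSK219 (5.87% and 2.34%). The smallest p-values against TRPV4-KO were those of Nfkbiz, Il1b and Socs3. Nfkbiz, a coactivator in the NF-κB pathway, had a log2 fold change of 1.05 (SE 0.23, adjusted p = 0.11, edgeR). Il1b, encoding the cytokine IL-1β, had 2.41 (SE 0.56, adjusted p = 0.12, edgeR), and Socs3, a feedback inhibitor induced by STAT3, had 1.46 (SE 0.35, adjusted p = 0.12, edgeR). Socs3 had 114 and 86.1 CPM in WT, 34.8, 22.5 and 51.4 CPM in TRPV4-KO, and 28.5, 50.6 and 37.4 CPM in GSK219 livers, so that both WT livers were above all others. For Stat3 itself the fold change was 0.22 on the log2 scale (adjusted p = 0.49, edgeR), and Cebpb had -0.37 (adjusted p = 0.45, edgeR). Il6 was too low to be tested, with a mean of 0.551 CPM in WT, 0.284 CPM in TRPV4-KO and 0.424 CPM in GSK219 livers.

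All 13 receptors that bind or answer to these proteins were tested, and 0 were called. Their log2 fold changes were above 0 in 13 of 13 in each comparison with WT, with medians of 1.10 against TRPV4-KO and 0.90 against GSK219. Over all genes tested the medians were -0.011 and -0.0015, and over 11 macrophage and Kupffer cell markers they were 1.32 and 1.09. Of the receptors, 9 and 7 had an unadjusted p under 0.05, beside 9.5% and 5.87% of all genes higher at that level. The part of cell makeup in the receptor values was not tested. Fcgr1, Fcgr3 and Tlr2 had the smallest p. Of the Fc receptors, which also bind pentraxins, Fcgr1 had a log2 fold change of 1.43 (SE 0.33, adjusted p = 0.12, edgeR), Fcgr3 1.54 (SE 0.38, adjusted p = 0.14, edgeR), Fcgr4 1.25 (adjusted p = 0.28, edgeR) and Fcgr2b 0.19 (adjusted p = 0.73, edgeR) against TRPV4-KO. Tlr2, a receptor for bacterial lipoproteins, had 1.36 (SE 0.34, adjusted p = 0.13, edgeR).

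Neutrophil, macrophage and stellate cell markers had their highest sums in the WT livers, while the sums of endothelial, cholangiocyte and lymphocyte markers overlapped between WT and at least 1 other group. The summed level of 14 neutrophil markers was 89.9 to 107 CPM in WT, 8.10 to 20.4 CPM in TRPV4-KO and 7.49 to 18.9 CPM in GSK219 livers, and of the 13 that were tested 3 (S100a8, Cxcr2 and Cd177) were called higher in WT than in TRPV4-KO, beside 0.152% of all genes, and 0 higher than in GSK219. The sum of 11 macrophage and Kupffer cell markers was 1937 to 2266 CPM, 553 to 1201 CPM and 586 to 1397 CPM, that of 8 endothelial markers 469 to 524 CPM, 307 to 472 CPM and 352 to 487 CPM, and that of 10 stellate cell and fibroblast markers 429 to 608 CPM, 156 to 350 CPM and 221 to 351 CPM, in the same order of groups. The sum of 7 cholangiocyte and ductal tumor cell markers was 56.5 to 93.3 CPM, 48.6 to 53.7 CPM and 34.1 to 57.9 CPM, and that of 9 lymphocyte markers was 4.66 to 9.46 CPM, 6.51 to 15.9 CPM and 4.53 to 7.23 CPM. The hepatocyte sum had the opposite order, as given above, with 11 of 12 markers below 0 on the log2 scale against each group. Alb is among these markers and is also a negative acute-phase gene. Without it, a choice made after the data were seen, the sum of the other 11 was 33099 and 38583 CPM in WT, 43246, 40487 and 38295 CPM in TRPV4-KO, and 41089.5, 39636 and 38050 CPM in GSK219 livers, so that WT replicate 2 overlapped both groups and WT replicate 1 was below all others. In whole liver RNA, fewer cells of a type and less RNA per cell cannot be told apart, and the part of these cell markers in the levels of the 10 genes was not tested.

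In PSCs the genes were scarce. Only Lbp, Serpina3n and Lrg1 were listed in the PSC table, and 0 of the 3 passed the threshold, where 0.733% of 15145 genes were higher and 0.786% lower with Yoda1. This fit did not pair the libraries by replicate number. With that number as a block the adjusted p of Lbp was 0.30 (limma). The deposited values, which are counts divided by a size factor per library, of Lbp were 73.8 ± 18.4 under DMSO and 62.4 ± 16.3 under Yoda1 (each SD, n = 3), a log2 fold change of -0.24 (SE 0.29, adjusted p = 0.66, limma). Serpina3n had 19.4 ± 4.64 and 17.6 ± 2.27, with -0.12 (SE 0.27, adjusted p = 0.83, limma). Lrg1 had values of 4.99, 0 and 12.1 with DMSO and 0.941, 10.7 and 11.2 with Yoda1, from at most 14 reads in a library.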

How the data were processed

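RNA-Seq of mouse livers (2 WT, 3 TRPV4-KO, 3 GSK219) and of mouse PSCs (3 DMSO, 3 Yoda1) was analyzed, with samples grouped by their labels. The liver values that the authors deposited are raw counts of reads per gene, and their gene coordinates are those of GRCm38. Another 7 columns of this table fit no sample of the labels and were left aside. The PSC values that the authors deposited are a signal, namely gene counts divided by a size factor of each library: within a library, 100% of the values were multiples of the smallest step, within 0.1 of it. The authors' own columns for the PSCs (log2 fold change, standard error, test statistic, p-value and adjusted p-value) were not used. HISAT2 2.0.5 and Trim Galore are named in the submitters' processing notes, and the counting tool is not given in the sources used here.

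Liver counts were fitted in R 4.3.3 with edgeR 4.0.16 (TMM, filter with a minimum count of 10, robust quasi-likelihood fit of all 8 livers). PSC values were tested with limma 3.58.1 on log2(value + 1), keeping genes that reached 10 in 3 or more libraries, so that these fold changes understate differences of low genes. p-values were adjusted by the Benjamini-Hochberg method over all genes tested, and calls had to pass both 0.05 for the adjusted p and 1 for the size of the log2 fold change. The labels number the livers as biological replicates. PSC libraries of the same replicate number share a code in their column names, whose meaning is not stated. Their deviations from the treatment means correlated across genes at 0.43, 0.26 and 0.53. The PSC values given above come from a fit without this pairing, and the pair served as a block in an alternative. With the pair as a block the adjusted p of Lbp was 0.30 (limma) and none of the 3 members in the PSC table was called. Coding sequences and overlaps with other genes came from GENCODE M21, and only Crp overlapped another gene, the pseudogene Gm38051, in no exon.

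The 10 genes and the comparison lists were chosen with earlier results of these data known. Named genes were the 10, their sum for the Orm paralogs, Trpv4, the called genes of each other list or at most the 3 with the smallest p in WT against TRPV4-KO, and the 10 genes most like the list. Lcn2 and Il33 were singled out among those, and Ambp, Fcgr4, Fcgr2b, Itih1, Serpina3k, Stat3, Cebpb, Il6 and Xist were named, after their values were seen. The fits were tested on simulated data for 14802 genes. In the simulated WT against TRPV4-KO comparison, edgeR recovered 19.4% of genes changed 2-fold, 68.7% of those changed 4-fold and 95.5% of those changed 8-fold, with 3 false calls among 125. Alternatives were RLE normalization, DESeq2 1.42.0, no filter, a replicate block, a term for sex reads, the compared groups alone, no fold-change threshold, pseudocounts of 0.1 and 10, a count test (edgeR) on the recovered PSC reads, and each library left out in turn.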

Additional observations from a re-analysis of the deposited data

How the results depend on the processing

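The number of the 10 genes past the threshold depended on the processing. In WT against TRPV4-KO it was 0 with edgeR, 1 (Orm1) without the filter on low counts, 1 (Orm1) with the replicate block, 3 with the sex term, 3 with DESeq2 and between 0 and 3 with 1 library left out, the 3 being Orm1, Lbp and Apcs without TRPV4-KO replicate 3. In WT against GSK219 it was 0, 1 (Orm1) without the filter, 2 with DESeq2 and 0 under all other alternatives. Of all genes, 7 were called higher and 1 lower in WT against GSK219 without the filter. In WT against the mean of both it was 0, 1 (Orm1) without the filter, 1 (Orm1) with the replicate block, 3 with the sex term, 3 with DESeq2 and between 0 and 2 with 1 library left out, with 2 without TRPV4-KO replicate 3 and 1 without WT replicate 2. All genes called higher in that comparison numbered 20 with edgeR, 85 without the filter, 288 with the block, 158 with the sex term and 281 with DESeq2. In TRPV4-KO against GSK219 and in PSCs it was 0 throughout. The cause was not tested. RLE normalization, the groups compared alone and a threshold without the fold change made no call among the 10.

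The deviations of same-numbered livers from their group means correlated above 0 in 5 of 7 pairs (mean 0.14, from -0.48 to 0.58), and the other 2 pairs had unlike sex reads. The deviations of the 2 WT livers mirror each other by construction, so the pairs that hold a WT liver are not independent. Over all pairs, the correlations were above 0 in 11 of 11 with the same sex reads and in 0 of 10 with unlike ones. The number therefore did not serve as a pairing, and the labels give no meaning to it. With it, the WT against TRPV4-KO comparison called 351 genes higher and 78 lower in WT, against 23 and 17 without. The sex term gave 252 and 73, DESeq2 374 and 121, no filter 100 and 40, the compared groups alone 11 and 9, and leaving out TRPV4-KO replicate 3 gave 573 and 149, whereas the counts were 3 and 1 without WT replicate 1, 2 and 1 without WT replicate 2, 8 and 6 without TRPV4-KO replicate 1, 7 and 4 without TRPV4-KO replicate 2, and 9 to 21 and 8 to 16 with a GSK219 liver left out. In WT against GSK219, where edgeR called 0 and 0, DESeq2 called 64 and 10. PSC calls were 252 and 200 with the replicate block, against 111 and 119.

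Of 150 fold changes of the 10 genes under the alternatives in WT against TRPV4-KO, 6 changed sign, and of 150 in WT against GSK219 2 did. Crp changed to -0.025 without the filter and -0.038 with the sex term, and in WT against the mean to -0.0050 and -0.013. With 1 library left out it ran from -0.10 to 0.13 against TRPV4-KO, -0.078 to 0.17 against GSK219, -0.091 to 0.15 against the mean, and -0.034 to 0.16 in TRPV4-KO against GSK219. Orm3 ran from -0.28 to 2.21 in WT against TRPV4-KO. In TRPV4-KO against GSK219, Orm2 was -0.044 with the replicate block, and with 1 library left out Orm2 ran from -0.50 to 0.58, Orm3 from -0.45 to 1.33, Itih4 from -0.11 to 0.30, Apcs from -0.80 to 0.066 and Serpina3n from -0.18 to 0.20. In PSCs, Lrg1 ran from -0.44 to 1.48 and Serpina3n from -0.28 to 0.050.

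WT had 2 livers, and with 1 left out the other was assumed to vary like the other groups. The gavage and the drug cannot be told apart. The labels give no batch for the livers.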
